A study of Mus musculus with 93 samples.

Results

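The 10 genes described here encode most of the classical plasma apolipoproteins of the mouse and the lipid transfer protein that loads very-low-density lipoprotein (VLDL): Apoa1, Apoa2, Apoa4, Apoa5, Apob, Apoc1, Apoc2, Apoc3, Apoe and Mttp. They were taken by gene symbol from the liver count table, which lists 53465 genes by Ensembl identifier, and each of the 10 symbols matched 1 identifier. All 10 passed the filter on low counts and were among the 19110 genes tested.

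Livers came from 93 male mice of 7 inbred strains, fed 1 of 2 diets at thermoneutrality (TN). Every mouse was moved to 30°C at 6 wk of age, was put on its diet at 7 wk, stayed on it for 17 wk and was killed at 24 wk after a 4 h fast, and the livers were perfused before they were frozen. The western-style diet (WD-TN) gave 40% of its energy as fat, 17% as protein and 43% as carbohydrate, and the control diet (CD-TN) gave 10%, 17% and 73%. The domesticated strains were C57BL/6J (8 CD-TN and 8 WD-TN mice), DBA/2J (6 and 7), A/J (5 and 6) and 129S1/SvImJ (7 and 6). The wild-derived strains were WSB/EiJ (6 and 6), CAST/EiJ (7 and 8) and PWK/PhJ (6 and 7), of which CAST/EiJ belongs to the subspecies M. musculus castaneus and PWK/PhJ to M. musculus musculus. Each strain is 1 inbred genotype, so a value of a strain is a value of that genotype as kept in 1 animal facility, and the diets differed in carbohydrate as well as in fat. Mice are numbered within a group only to name them.

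Lipoproteins carry water-insoluble lipid through plasma, and apolipoproteins give them their shape and their address. In the hepatocyte, apoB is threaded into the endoplasmic reticulum while the protein made from Mttp hands it triglyceride and cholesteryl ester, and the particle leaves the cell as VLDL. ApoA-I and apoA-II are the main proteins of high-density lipoprotein (HDL), apoC-II switches on lipoprotein lipase in capillaries, apoC-III holds it back, apoA-V favours it, and apoE is the ligand by which remnants are taken up again by the liver.

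Between 40020424 and 49894856 reads per mouse were assigned to genes (median 46618609), and the 10 genes took 3.03% to 4.87% of them. Read numbers per gene and mouse ran from 47 to 458 for Apoc2 and were at least 2330 for the other 9 genes, so Apoc2 alone rests on few reads. Expression is given as CPM, the reads of a gene scaled to a common library size by the trimmed mean of M values (TMM). Reads were aligned to the C57BL/6J genome in every strain, and unmapped reads averaged 2.23% in C57BL/6J on CD-TN, 3.50% on CD-TN and 7.88% on WD-TN in PWK/PhJ, 4.52% and 7.42% in WSB/EiJ, and 10.8% and 13.3% in CAST/EiJ. The part of these shares in the levels below was not tested. A pair of C57BL/6J libraries of cohort 1 stood apart: CD-TN mouse 2 and WD-TN mouse 3 had summed stellate cell and fibroblast markers of 887 and 1057 CPM, against 323 to 476 and 321 to 729 CPM in the other mice of their groups, and had the lowest Mttp of their groups (213 and 249.5 CPM). Their summed cholangiocyte markers were 435 and 406 CPM, against 43.3 to 199 and 47.9 to 215 CPM in the other mice. Values without both libraries are given where they change a call. Summed pancreatic acinar markers were high in some mice, up to 1459 CPM in CAST/EiJ on WD-TN (group median 2.20) and 1164 CPM in DBA/2J on CD-TN (46.5). They reached 1033 CPM in WSB/EiJ on CD-TN (31.6) and 624 CPM in A/J on WD-TN (9.44). Their part in the results was not tested.

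The 7 small apolipoprotein genes outside Apoa2 lie in 2 clusters of the GRCm38 assembly. On chromosome 9, Apoa1 (chr9:46228580-46230466, + strand), Apoc3 (chr9:46232933-46235636, - strand), Apoa4 (chr9:46240696-46243459, + strand) and Apoa5 (chr9:46268633-46271919, + strand) span 43340 bp. On chromosome 7, Apoc2 (chr7:19671579-19677941), Apoc1 (chr7:19689481-19692660) and Apoe (chr7:19696109-19699188), all on the - strand, span 27610 bp. Apoa2 stands alone on chromosome 1 (chr1:171225054-171226379, + strand), Apob on chromosome 12 (chr12:7977648-8016835, + strand) and Mttp on chromosome 3 (chr3:138089854-138144968, - strand). Counting was by exon, and 646 of the 813 exon bases of Apoc2 are shared with Gm44805, a gene on the same strand that holds 0 reads. The count table keeps ambiguous reads on a line that names no gene, so reads from the shared bases are probably missing from Apoc2. Exons on the opposite strand cover 34.9% of Apoa4 (Gm47528, 20967 reads in all mice together), 20.8% of Apoa5 (Gm47544, 0 reads) and 7.4% of Mttp (Trmt10a, 24388 reads), and the strand setting of the counting is not given in the sources used here.

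Promoter sequences in the RefSeq table (GRCm38.p6) were found for 8 of the 10 genes, and not for Apoc1 and Apoc3. Those of Apoa1, Apoa4, Apoa5 and Apoe are printed as those of 2 genes called lower (Apoa1 and Apoa5) and 2 called higher (Apoa4 and Apoe) on WD-TN in 4 or more strains, with members of both clusters. Each run reads 5′ to 3′ on the gene's own strand and ends at the base before the first annotated exon, at chr9:46228380-46228579 (+ strand, 200 bases) for Apoa1, chr9:46240594-46240695 (+ strand, 102 bases) for Apoa4, chr9:46268383-46268632 (+ strand, 250 bases) for Apoa5 and chr7:19699189-19699438 (- strand, 250 bases) for Apoe. Capitals mark an E-box (the letters CACGTG) and the letters of a TATA-type element (TATAAA), which were found in Apoa5 alone of these 4.
Apoa1: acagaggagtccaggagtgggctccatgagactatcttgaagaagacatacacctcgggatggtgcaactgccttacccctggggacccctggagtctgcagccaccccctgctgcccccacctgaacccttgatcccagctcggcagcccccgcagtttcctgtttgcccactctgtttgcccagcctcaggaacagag
Apoa4: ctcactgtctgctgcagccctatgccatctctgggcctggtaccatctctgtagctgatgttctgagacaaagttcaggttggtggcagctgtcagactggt
Apoa5: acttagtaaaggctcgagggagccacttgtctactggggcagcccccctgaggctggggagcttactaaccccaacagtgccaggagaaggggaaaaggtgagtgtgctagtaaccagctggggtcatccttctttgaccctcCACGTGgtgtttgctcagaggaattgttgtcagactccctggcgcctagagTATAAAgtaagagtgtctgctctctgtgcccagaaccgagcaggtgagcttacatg
Apoe: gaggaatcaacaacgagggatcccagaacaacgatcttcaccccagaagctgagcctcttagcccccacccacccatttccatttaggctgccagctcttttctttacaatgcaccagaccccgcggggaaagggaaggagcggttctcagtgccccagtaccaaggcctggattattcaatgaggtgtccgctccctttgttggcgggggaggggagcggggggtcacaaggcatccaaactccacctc
Motifs were searched on both strands in the 300-base windows, and 3 are described here. TATAAA was found in 13.6% of 32544 promoters and in 3 of the 8 available here (Apoa2, Apoa5 and Apob), and CACGTG in 7.17% and in Apoa5. The nuclear receptor hexamer AGGTCA was found in 16.2% and in Apoc2 alone of the 8. The matches did not overlap each other in Apoa5, where CACGTG began 107 bases and TATAAA 56 bases before the start. These are matches of letters and nothing was measured at them.

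Levels are compared between genes per kb of exon, and on that scale the 10 genes spanned a wide range. Apoa1, Apoa2 and Apoe held the top 3 places in all 14 groups, with group means between 5264 and 14238 CPM per kb for Apoa1, 5796 and 12619 for Apoa2, and 5297 and 9825 for Apoe. Apoc1 (1247 to 2893) and Apoc3 (811 to 1528) came next in every group, Mttp ran from 46.9 to 91.0, and Apoc2 was last in every group (2.03 to 8.60). The level of Apoc2 was divided by all its 813 exon bases, of which 646 are shared with Gm44805. It is probably too low, because ambiguous reads were kept apart and Gm44805 holds 0 reads. On CD-TN Apoa1 was first in 6 strains and Apoa2 in PWK/PhJ, whereas on WD-TN Apoa1 was first in CAST/EiJ and PWK/PhJ, and Apoe or Apoa2 in the other 5. Apoa4 moved most along this scale, from 37.5 CPM per kb in A/J on CD-TN to 531 in PWK/PhJ on WD-TN, and on WD-TN stood above Apob in PWK/PhJ, C57BL/6J and 129S1/SvImJ.

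**Figure D1:**
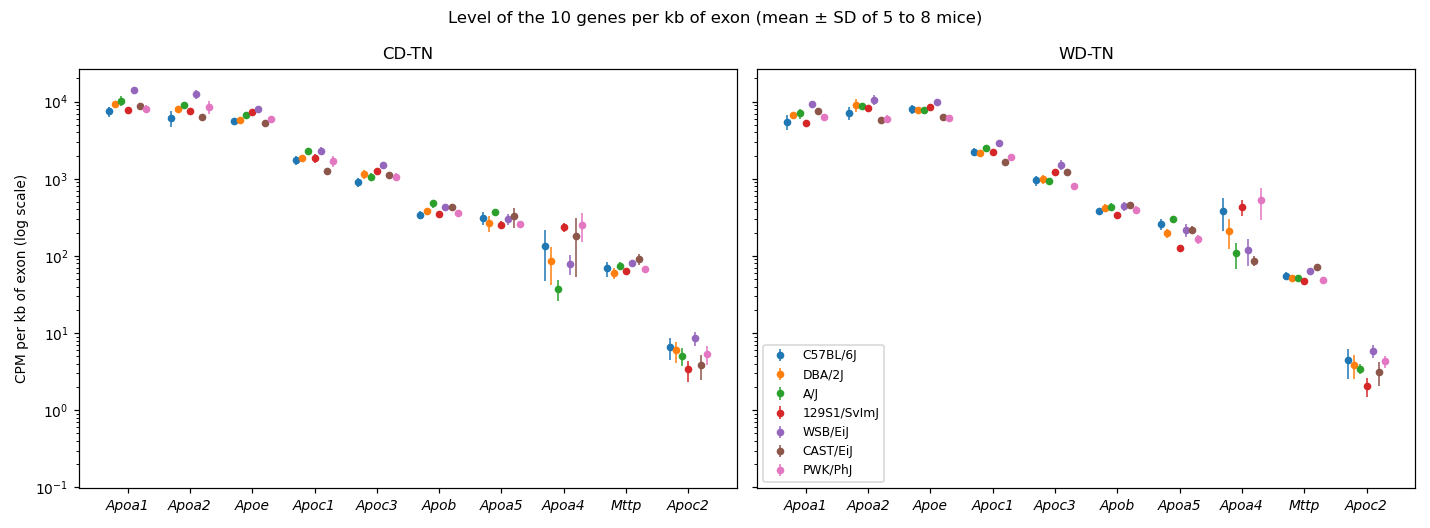
Expression of the 10 genes per kb of exon (log scale) in each strain on CD-TN (left) and WD-TN (right); points are group means and bars are SD over 5 to 8 mice. Apoa1, Apoa2 and Apoe lie at or above 5264 CPM per kb in every group, Apoc2 lies below 10, and Apoa4 has the widest spread of strains, from 37.5 to 531. The level of Apoc2 is probably too low, because reads from the exon bases it shares with Gm44805 were probably kept apart as ambiguous.

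The first comparison asked how a fat-rich diet changed each gene within each strain. Of 70 comparisons (10 genes in 7 strains), 35 were called, that is, had an adjusted p below 0.05 in limma-voom, 13 upward and 22 downward, and in 17 the WD-TN and CD-TN mice did not overlap, which held for 0.806% to 9.23% of all genes upward and 0.973% to 7.18% downward per strain. On WD-TN, Apoa1 and Mttp were downregulated in 6 strains, Apoa5 in 5 and Apoc2 in 3, Apoe was upregulated in 5 strains and Apoc1 and Apoa4 in 4 each, Apoa2 and Apoc3 fell in PWK/PhJ alone, and Apob was called in no strain. In C57BL/6J 3 of the 10 genes rose and 3 fell, where 14.3% of all tested genes rose and 11.9% fell. DBA/2J had 2 up and 3 down (all genes 10.2% and 7.77%), A/J 1 and 2 (4.39% and 4.64%), 129S1/SvImJ 2 and 4 (14.5% and 13.6%), WSB/EiJ 2 and 3 (4.97% and 3.97%), CAST/EiJ 2 and 2 (9.77% and 9.73%) and PWK/PhJ 1 and 5 (15.1% and 14.5%). None of the 10 lay wholly above CD-TN or wholly below it in C57BL/6J (0.806% and 0.973% of all genes did), wholly above in WSB/EiJ (2.5%) or PWK/PhJ (6.59%), or wholly below in CAST/EiJ (1.28%). The median log2 fold change of the 10 genes was lowest in PWK/PhJ (-0.32) and highest in C57BL/6J (0.13), against medians over all genes between -0.011 and 0.017.

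**Figure D2:**
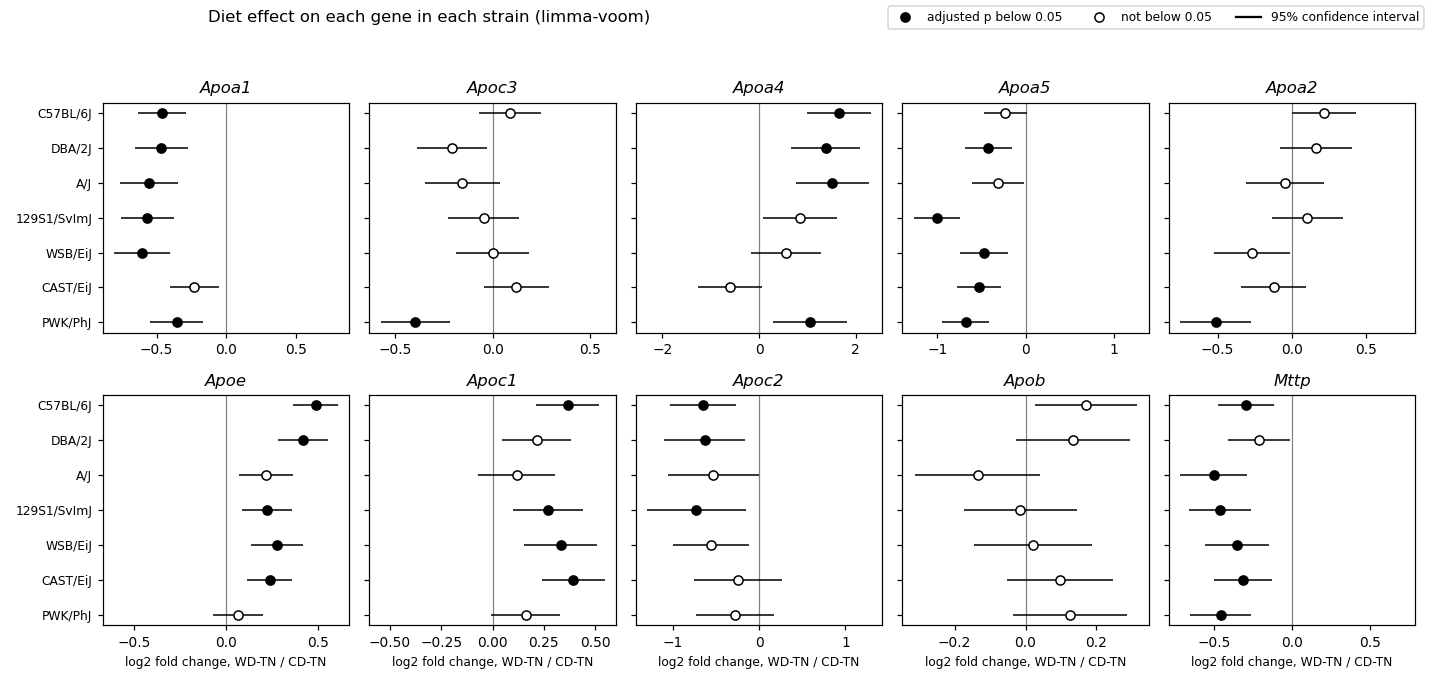
Log2 fold change of WD-TN over CD-TN for each gene in each strain (limma-voom), with 95% confidence intervals; filled points have an adjusted p below 0.05. Apoa1, Apoa5, Apoc2 and Mttp lie left of zero in all 7 strains and Apoc1 and Apoe right of it, while Apoa4 is right of zero in 6 strains and left of it in CAST/EiJ (-0.60). The horizontal scale differs between panels.

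Other genes moved with diet in the same livers. Of 8 hepatocyte markers (among them Alb, Ttr, Trf, Hnf4a, Cps1, Fgb and Serpinc1), none rose in any strain and 4, 3, 4, 6, 2, 1 and 4 fell in C57BL/6J, DBA/2J, A/J, 129S1/SvImJ, WSB/EiJ, CAST/EiJ and PWK/PhJ. In the same order of strains, 11.9%, 7.77%, 4.64%, 13.6%, 3.97%, 9.73% and 14.5% of all tested genes fell. The summed level of the 8 markers ran from 104057 to 123143 CPM on CD-TN and from 66729 to 83631 CPM on WD-TN in C57BL/6J. In the same order of diets it ran from 100178 to 122868 and 87215 to 115996 CPM in DBA/2J, 171220.4 to 204819 and 124283 to 146459.8 CPM in A/J, and 90836 to 123458 and 71315 to 95373 CPM in 129S1/SvImJ. In the wild-derived strains the ranges were 125549.7 to 162415 and 62077 to 93809.7 CPM in WSB/EiJ, 98951 to 118034 and 61950.2 to 83086 CPM in CAST/EiJ and 104689 to 129614 and 64517 to 87216 CPM in PWK/PhJ. The groups of C57BL/6J, A/J, WSB/EiJ, CAST/EiJ and PWK/PhJ did not overlap between diets in this sum. Most of the sum is Alb (median over all mice 85605 CPM, against 4686 CPM for Ttr, the next highest), so it mainly follows that gene. Of 11 macrophage markers 8 rose in 129S1/SvImJ, 7 in PWK/PhJ, 6 in C57BL/6J and 2 each in WSB/EiJ and CAST/EiJ. Of 7 stellate cell and fibroblast markers 4 rose in PWK/PhJ, 3 each in 129S1/SvImJ and C57BL/6J and 2 in A/J. Of all tested genes, 14.5% rose in 129S1/SvImJ, 15.1% in PWK/PhJ, 14.3% in C57BL/6J and 4.97% in WSB/EiJ. The upward shares were 9.77% in CAST/EiJ, 4.39% in A/J and 10.2% in DBA/2J. The macrophage sum ran from 337 to 755 CPM on CD-TN and 599 to 1151 CPM on WD-TN in C57BL/6J, 200.3 to 340.4 CPM on CD-TN and 450.3 to 627 CPM on WD-TN in 129S1/SvImJ, 44.5 to 321 CPM on CD-TN and 320.3 to 459.9 CPM on WD-TN in PWK/PhJ, and the stellate cell sum in PWK/PhJ from 136 to 219 CPM on CD-TN and 297 to 606 CPM on WD-TN. Of 5 cholangiocyte markers 4 rose in PWK/PhJ, 1 each in C57BL/6J, 129S1/SvImJ and CAST/EiJ, and 1 fell in DBA/2J. Their sum ran from 64.5 to 140.3 CPM on CD-TN and 159 to 525 CPM on WD-TN in PWK/PhJ, and from 21.3 to 43.1 and 59.7 to 102 CPM in 129S1/SvImJ. Most of it is Spp1 (median over all mice 31.8 CPM, against 5.27 CPM for Sox9, the next highest). In bulk liver, fewer cells of a type and less RNA per cell cannot be told apart, and the part of these shifts in the results was not tested.

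Apoa1, the main HDL protein, fell on WD-TN by 21.9% to 34.2% in the 6 strains where it was called. In WSB/EiJ, which had the highest level, the lowest, median and highest mice were at 16069.7, 17337 and 19183 CPM on CD-TN and at 10160.0, 11693 and 12998 CPM on WD-TN. Every WD-TN mouse of that strain lay below every CD-TN mouse, where 1.86% of all genes showed such a gap downward, and the fitted level fell by 34.2% (log2 fold change -0.60, 95% confidence interval -0.80 to -0.40, adjusted p = 8.5e-06). In 129S1/SvImJ the mice lay at 8766, 9732 and 10261 CPM on CD-TN and at 5792, 6615 and 6785 CPM on WD-TN, again with no overlap (7.18% of all genes; log2 fold change -0.57, adjusted p = 2.5e-06). The 5 A/J mice on CD-TN had 10931, 11817, 12158, 13397 and 15419.7 CPM, and the 6 on WD-TN had a lowest, median and highest of 7467, 8183 and 10591 CPM. The highest A/J mouse on WD-TN was just under the lowest on CD-TN (3.94% of all genes; log2 fold change -0.55, adjusted p = 0.00016).

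The means of the other 4 strains were lower on WD-TN too, with less separation of the mice. DBA/2J mice lay at 9537, 11919 and 12436 CPM on CD-TN and at 7335, 8303 and 9527 CPM on WD-TN, so that the groups only just parted (2.6% of all genes did not overlap downward; log2 fold change -0.47, adjusted p = 0.00016). In C57BL/6J the values were 6108, 9595 and 10460.3 CPM on CD-TN and 5214, 6176 and 9357 CPM on WD-TN, and 3 of 8 WD-TN mice were below all CD-TN mice (log2 fold change -0.46, adjusted p = 1.7e-05). PWK/PhJ had 8629.8, 9926 and 11549 CPM on CD-TN against 6760.2, 7858 and 9266 CPM on WD-TN (log2 fold change -0.36, adjusted p = 0.0025). CAST/EiJ had the smallest difference, with 9543, 11216 and 11848 CPM on CD-TN and 7582, 9540.4 and 10404 CPM on WD-TN (log2 fold change -0.23, interval -0.41 to -0.05, adjusted p = 0.057). It passed the threshold without CD-TN mouse 2 (-0.25), CD-TN mouse 3 (-0.26) or WD-TN mouse 5 (-0.25), with cohort in the fit (-0.25, adjusted p = 0.025) and without both C57BL/6J libraries that stood apart (-0.23, adjusted p = 0.029), while within cohorts 1, 3 and 4 it was -0.23, 0.06 and -0.43. It stayed uncalled in 4 of 9 alternatives and passed in the others, among them DESeq2 (adjusted p = 0.036) and a fit of CAST/EiJ on its own (adjusted p = 0.037).

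Apoc3, which lies between Apoa1 and Apoa4 and encodes the inhibitor of lipoprotein lipase, fell on WD-TN in PWK/PhJ alone. There the mice lay at 975, 1056 and 1226 CPM on CD-TN and at 686, 825 and 930.0 CPM on WD-TN. All 7 WD-TN mice were below all 6 CD-TN mice, where 6.02% of all genes showed this, and the log2 fold change was -0.40 (interval -0.57 to -0.22, adjusted p = 0.00028). In the other 6 strains it lay between -0.21 in DBA/2J (interval -0.39 to -0.03, adjusted p = 0.096) and 0.12 in CAST/EiJ (interval -0.04 to 0.29), none called. DBA/2J passed without CD-TN mouse 3 or WD-TN mouse 6 (log2 fold change -0.26 each) and with sample quality weights (-0.21, adjusted p = 0.038).

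Apoa4, a lipid-responsive apolipoprotein made by liver and gut in the mouse, had the largest fold changes and the widest spread between mice, with a median coefficient of variation within groups of 39.4% against 6.94% for Apoe. In C57BL/6J it lay at 89.6, 190.0 and 515 CPM on CD-TN and at 271, 689 and 1392 CPM on WD-TN, and 7 of 8 WD-TN mice were above all CD-TN mice. The rise was 3.14-fold (log2 fold change 1.65, interval 0.98 to 2.32, adjusted p = 8e-05). A/J mice on CD-TN had 50.6, 52.9, 57.8, 83.0 and 96.3 CPM, the lowest of all groups, and the 6 mice on WD-TN had a lowest, median and highest of 156, 168 and 345 CPM. The A/J groups did not overlap (4.14% of all genes did so upward), with a 2.85-fold rise (log2 fold change 1.51, adjusted p = 0.0052), a call lost when every gene with any count was tested (adjusted p = 0.22). DBA/2J went from 76.0, 134 and 268 CPM to 254, 306 and 677 CPM (log2 fold change 1.38, adjusted p = 0.0034), with 5 of 7 WD-TN mice above all CD-TN mice.

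PWK/PhJ had the highest Apoa4 on both diets, at 197, 482 and 674 CPM on CD-TN and 390.4, 859 and 1691 CPM on WD-TN. Its rise (log2 fold change 1.05, interval 0.29 to 1.82, adjusted p = 0.028) lost its call without any 1 of CD-TN mice 1 and 6 or WD-TN mice 2, 4 and 5, with log2 fold changes of 0.95, 0.83, 0.97, 0.90 and 1.00. In 129S1/SvImJ the groups did not overlap, at 385, 392 and 517 CPM on CD-TN and 563, 748 and 1012 CPM on WD-TN, where 9.23% of all genes did so upward, yet the difference was not called (log2 fold change 0.85, adjusted p = 0.088). The spread of a gene was estimated over all strains together, and a fit of 129S1/SvImJ on its own gave an adjusted p of 6.2e-05. The difference also passed with sample quality weights (adjusted p = 0.013), in DESeq2 (0.042) and when every gene with any count was tested (0.031). It stayed uncalled in 5 of 9 alternatives. WSB/EiJ lay at 92.6, 129 and 198 CPM and at 104, 219.8 and 356 CPM (log2 fold change 0.56, interval -0.17 to 1.29, adjusted p = 0.4).

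CAST/EiJ was the strain in which the mean of Apoa4 was lower on WD-TN. Its CD-TN mice were spread from 59.2 to 624 CPM (median 293) and its WD-TN mice were close together, from 124 to 196 CPM (median 161), inside the CD-TN range. The log2 fold change was -0.60 (interval -1.26 to 0.05, adjusted p = 0.2). It passed the threshold without CD-TN mouse 2 (-0.90) or CD-TN mouse 4 (-0.94), and also in edgeR (-1.06, adjusted p = 0.013) and DESeq2 (-1.07, adjusted p = 0.0069). Within the cohorts it was -0.45 in cohort 1, which held 1 CD-TN mouse, 0.19 in cohort 3 and -1.05 in cohort 4. Of 8 enterocyte markers 3 were expressed enough to be tested, and Cdx1, Cdx2, Alpi, Sis and Lct were at 0 reads in 91, 80, 85, 71 and 66 of the 93 mice. The summed level of the 8, almost all of it Fabp2, ran from 55.8 to 84.3 CPM on CD-TN and 106 to 142 CPM on WD-TN in CAST/EiJ, and from 49.8 to 79.4 and 75.5 to 159 CPM in C57BL/6J, and 1 to 3 of the 8 rose per strain and 1 fell in A/J. Of all tested genes 4.39% to 15.1% rose per strain, and 4.64% fell in A/J.

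Apoa5, made by the liver and a positive regulator of plasma triglyceride lipolysis, was lower on WD-TN in 5 strains. The drop was largest in 129S1/SvImJ, where mice lay at 560.4, 642 and 787 CPM on CD-TN and at 270.0, 322 and 362 CPM on WD-TN, so that the groups were far apart. The fitted level fell by 50.3% (log2 fold change -1.01, interval -1.27 to -0.75, adjusted p = 8.5e-09). PWK/PhJ mice also did not overlap, with 573, 665 and 722 CPM on CD-TN and 346, 431 and 489 CPM on WD-TN (log2 fold change -0.68, adjusted p = 3.4e-05). In DBA/2J the values were 503, 656 and 872 CPM against 404, 472 and 625.2 CPM (log2 fold change -0.42, adjusted p = 0.018), a call lost without CD-TN mouse 2 (-0.34), CD-TN mouse 3 (-0.35) or WD-TN mouse 2 (-0.37). WSB/EiJ fell from 620.0, 735 and 960.3 CPM to 444, 524 and 708 CPM (log2 fold change -0.47, adjusted p = 0.018), a call lost without CD-TN mouse 3 (-0.41), WD-TN mouse 1 (-0.43) or WD-TN mouse 5 (-0.42) and when every gene with any count was tested (adjusted p = 0.062).

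In CAST/EiJ, Apoa5 showed the same shape as Apoa4, wide on CD-TN (406, 779 and 1129 CPM) and narrow on WD-TN (465, 559 and 651 CPM). The log2 fold change was -0.53 (adjusted p = 0.001), and within cohorts it was -0.59 in cohort 1, 0.02 in cohort 3 and -0.71 in cohort 4. The 5 A/J mice on CD-TN had 873, 893, 923, 978 and 1000.1 CPM, all above the WD-TN mice (665, 762 and 834 CPM), but the difference was not called (log2 fold change -0.31, adjusted p = 0.19). A fit of A/J on its own gave an adjusted p of 0.0097. C57BL/6J lay at 495, 788 and 989 CPM and at 550.2, 637 and 894 CPM (log2 fold change -0.23, interval -0.47 to 0.01, adjusted p = 0.17). It passed without CD-TN mouse 2 (-0.31) and with sample quality weights (-0.39, adjusted p = 0.0091).

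**Figure D3:**
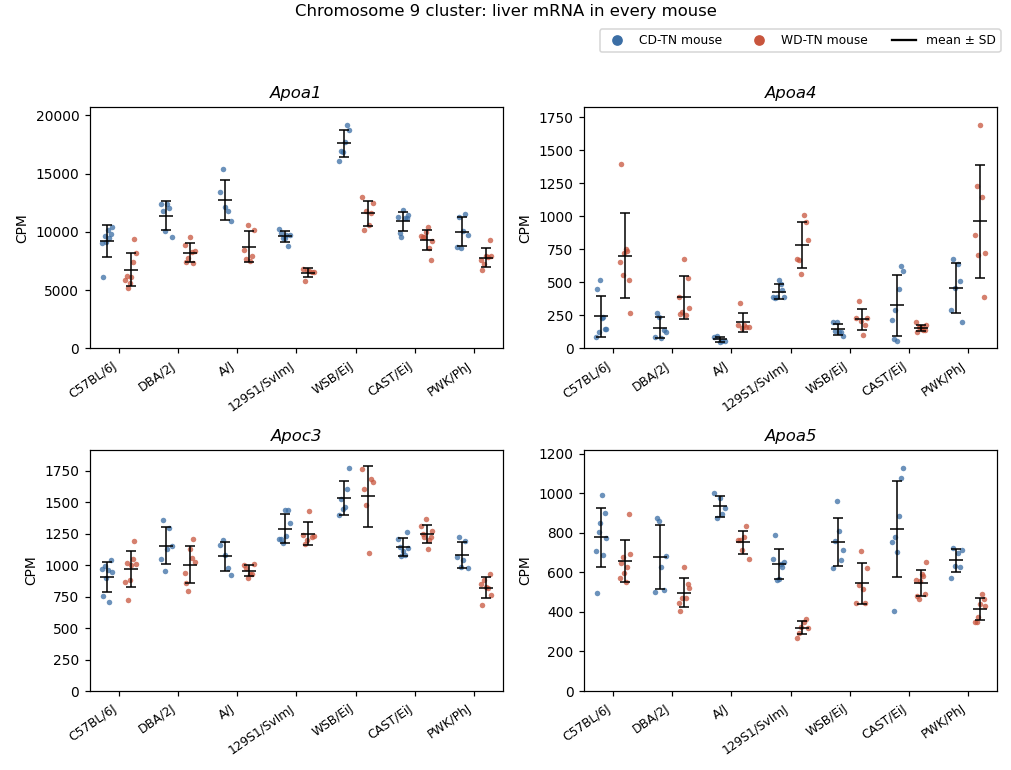
CPM of the 4 chromosome 9 genes in every mouse, by strain and diet, with mean ± SD; axes start at 0. Apoa1 is lower and Apoa4 higher in WD-TN mice of most strains, and in CAST/EiJ the CD-TN mice are spread from 59.2 to 624 CPM for Apoa4 while the WD-TN mice lie between 124 and 196 CPM.

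Apoa2, the second protein of HDL, was called only in PWK/PhJ. Mice of that strain lay at 3581, 4453 and 6278 CPM on CD-TN and at 2485, 3264 and 3772 CPM on WD-TN, with 6 of 7 WD-TN mice below all CD-TN mice. The fitted level fell by 29.9% (log2 fold change -0.51, interval -0.75 to -0.27, adjusted p = 0.00051). The other 6 strains lay between -0.27 in WSB/EiJ (interval -0.52 to -0.02, adjusted p = 0.2) and 0.22 in C57BL/6J (interval 0.0032 to 0.43, adjusted p = 0.13). The C57BL/6J difference passed without CD-TN mouse 7 (0.28), without WD-TN mouse 3 (0.35), and without both libraries that stood apart (0.25, adjusted p = 0.026). WSB/EiJ passed in that last fit too (-0.28, adjusted p = 0.044).

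Apoe was upregulated in 5 strains and had the tightest replicates. In C57BL/6J the mice lay at 10146, 12276 and 13552 CPM on CD-TN and at 11944, 17566 and 18465 CPM on WD-TN. All WD-TN mice but mouse 3, one of the pair that stood apart, were above all CD-TN mice, and the rise was 1.40-fold (log2 fold change 0.49, interval 0.37 to 0.61, adjusted p = 1.4e-09). DBA/2J went from 11479, 12372 and 13592 CPM to 15111, 15986 and 19630.2 CPM with no overlap (4.68% of all genes upward; log2 fold change 0.42, adjusted p = 1.5e-06). CAST/EiJ, which had the lowest level on CD-TN, went from 10649, 11357 and 11883 CPM to 12742, 13380.2 and 13977 CPM, also with no overlap, where 0.952% of all genes did so upward (log2 fold change 0.24, adjusted p = 0.0028; 0.32 when every gene with any count was tested).

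WSB/EiJ had the highest Apoe, at 16906, 17164 and 17867 CPM on CD-TN and 17146, 21522 and 22509.9 CPM on WD-TN (log2 fold change 0.28, adjusted p = 0.0048). 129S1/SvImJ lay at 14461, 15712 and 17049 CPM and at 16405, 18074 and 19391 CPM, with 5 of 6 WD-TN mice above all CD-TN mice (log2 fold change 0.22, adjusted p = 0.0091). The 5 A/J mice on CD-TN had 12966, 13643, 14880.1, 14927 and 15765 CPM against 15618, 16759 and 18258 CPM on WD-TN. This difference was about as large as that of 129S1/SvImJ (log2 fold change 0.22, interval 0.07 to 0.36) but its adjusted p of 0.05 was not below the threshold, and it passed without CD-TN mouse 3 (0.26) or WD-TN mouse 5 (0.24). It also passed in 6 of 9 alternatives, among them DESeq2 (adjusted p = 0.021) and the fit without both C57BL/6J libraries (0.22, adjusted p = 0.015), with an adjusted p between 0.00088 and 0.21 over the 9. PWK/PhJ mice overlapped almost fully, at 11240.1, 12217 and 14549 CPM and 11331, 13225 and 14569 CPM (log2 fold change 0.06, interval -0.07 to 0.20, adjusted p = 0.51).

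Apoc1, the neighbour of Apoe and a small exchangeable apolipoprotein of VLDL and HDL, rose in C57BL/6J, 129S1/SvImJ, WSB/EiJ and CAST/EiJ. CAST/EiJ mice lay at 847, 968 and 1002 CPM on CD-TN and at 1046, 1226 and 1347 CPM on WD-TN, with all 8 WD-TN mice above all 7 CD-TN mice, as for 0.952% of all genes (log2 fold change 0.39, adjusted p = 8e-05). In C57BL/6J the values were 1012, 1286 and 1514 CPM against 1305, 1731 and 1857 CPM, with 6 of 8 WD-TN mice above all CD-TN mice (log2 fold change 0.37, adjusted p = 0.00013). WSB/EiJ lay at 1526, 1693 and 2106 CPM and at 1741, 2196 and 2317 CPM (log2 fold change 0.33, adjusted p = 0.0086). In 129S1/SvImJ (1117, 1386 and 1614 CPM against 1536, 1656 and 1794 CPM; log2 fold change 0.27, adjusted p = 0.012) the call was lost without CD-TN mouse 5 (0.22, adjusted p = 0.051). DBA/2J (0.21), PWK/PhJ (0.16) and A/J (0.12) were not called, though DBA/2J passed without WD-TN mouse 3 (0.24) and PWK/PhJ without CD-TN mouse 5 (0.22). PWK/PhJ also passed with sample quality weights (0.19, adjusted p = 0.029). DBA/2J also passed in 6 of 9 alternatives, among them DESeq2 (adjusted p = 0.048) and the fit without both C57BL/6J libraries (0.21, adjusted p = 0.046), with an adjusted p between 0.037 and 0.15 over the 9.

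Apoc2, the cofactor of lipoprotein lipase, was lower on WD-TN on average in all 7 strains and was called in 3. Its counts probably rest on the 167 exon bases not shared with Gm44805, and the diet effects below are those of these reads. In C57BL/6J mice lay at 3.45, 4.93 and 8.43 CPM on CD-TN and at 1.73, 3.16 and 5.66 CPM on WD-TN, with 5 of 8 WD-TN mice below all CD-TN mice (log2 fold change -0.65, adjusted p = 0.0081). It was -1.14 in cohort 1 and 0.11 in cohort 2, with cohort in the fit it was -0.48 (adjusted p = 0.052), and in a fit of C57BL/6J on its own its adjusted p was 0.082. DBA/2J went from 3.18, 4.56 and 6.73 CPM to 1.99, 2.71 and 4.53 CPM (log2 fold change -0.63, adjusted p = 0.049), and 129S1/SvImJ from 2.04, 2.49 and 4.43 CPM to 1.17, 1.54 and 2.28 CPM (log2 fold change -0.73, adjusted p = 0.048). Both of these calls were close to the threshold. The DBA/2J call was lost without any 1 of CD-TN mice 1, 2 and 3 and WD-TN mice 4, 5, 6 and 7 (-0.61 to -0.52), and the 129S1/SvImJ call without any 1 of CD-TN mice 2, 3, 4 and 7 and WD-TN mice 1, 2, 4 and 5 (-0.74 to -0.60). The DBA/2J call was also lost in 6 of 9 alternatives, edgeR among them (adjusted p 0.019 to 0.088 over the 9), and the 129S1/SvImJ call under upper-quartile scaling (adjusted p = 0.076) and with every gene of any count (adjusted p = 0.066). The other strains lay between -0.55 in WSB/EiJ and -0.24 in CAST/EiJ. WSB/EiJ passed in a fit of its own (-0.56, adjusted p = 0.038).

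Mttp, the lipid loader of apoB, was downregulated in 6 strains. In 129S1/SvImJ the mice lay at 375, 402 and 424 CPM on CD-TN and at 268, 299 and 312 CPM on WD-TN (log2 fold change -0.46, adjusted p = 0.00018). PWK/PhJ went from 394, 414 and 465 CPM to 272, 308 and 341 CPM (log2 fold change -0.46, adjusted p = 0.00017), and WSB/EiJ from 434, 514 and 525 CPM to 356, 393 and 421 CPM (log2 fold change -0.35, adjusted p = 0.017, and 0.057 when every gene with any count was tested). None of these 3 strains had a WD-TN mouse as high as its lowest CD-TN mouse, as for 7.18%, 6.02% and 1.86% of all genes. The same held in A/J (3.94% of all genes), where the CD-TN mice had 374, 453, 457, 496 and 519 CPM and the WD-TN mice 275, 334 and 346 CPM (log2 fold change -0.50, adjusted p = 0.00092). CAST/EiJ had the highest level and overlapped, at 425, 569 and 696 CPM and 405, 460.4 and 488 CPM (log2 fold change -0.31, adjusted p = 0.01), and lost its call without CD-TN mouse 7 (-0.26, adjusted p = 0.052).

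In C57BL/6J, Mttp lay at 213, 456 and 520.0 CPM on CD-TN and at 249.5, 347 and 384 CPM on WD-TN (log2 fold change -0.30, adjusted p = 0.0087), where both lowest values were those of the libraries that stood apart. A fit of C57BL/6J on its own gave an adjusted p of 0.18. The decrease in DBA/2J was not called (292, 364 and 475 CPM against 291, 319.6 and 342 CPM; log2 fold change -0.21, interval -0.41 to -0.02, adjusted p = 0.13), and passed without CD-TN mouse 4 (-0.28) and without both C57BL/6J libraries (-0.21, adjusted p = 0.027).

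Apob, the scaffold of VLDL, was called in 0 of 7 strains by limma-voom, by edgeR and by DESeq2, and its unadjusted p in limma-voom was below 0.05 in 1 strain, C57BL/6J. Its log2 fold changes lay between -0.14 in A/J and 0.17 in C57BL/6J, and their 95% confidence intervals together covered -0.31 to 0.32. C57BL/6J mice lay at 3976, 4672 and 5506 CPM on CD-TN and at 4579.7, 5400.1 and 5833 CPM on WD-TN (log2 fold change 0.17, adjusted p = 0.074), and 3 of 8 WD-TN mice were above all CD-TN mice. The difference passed without CD-TN mouse 1 (0.20), CD-TN mouse 5 (0.20) or WD-TN mouse 3 (0.21). In the remaining strains single mice ran from 4270.3 to 7872 CPM.

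**Figure D4:**
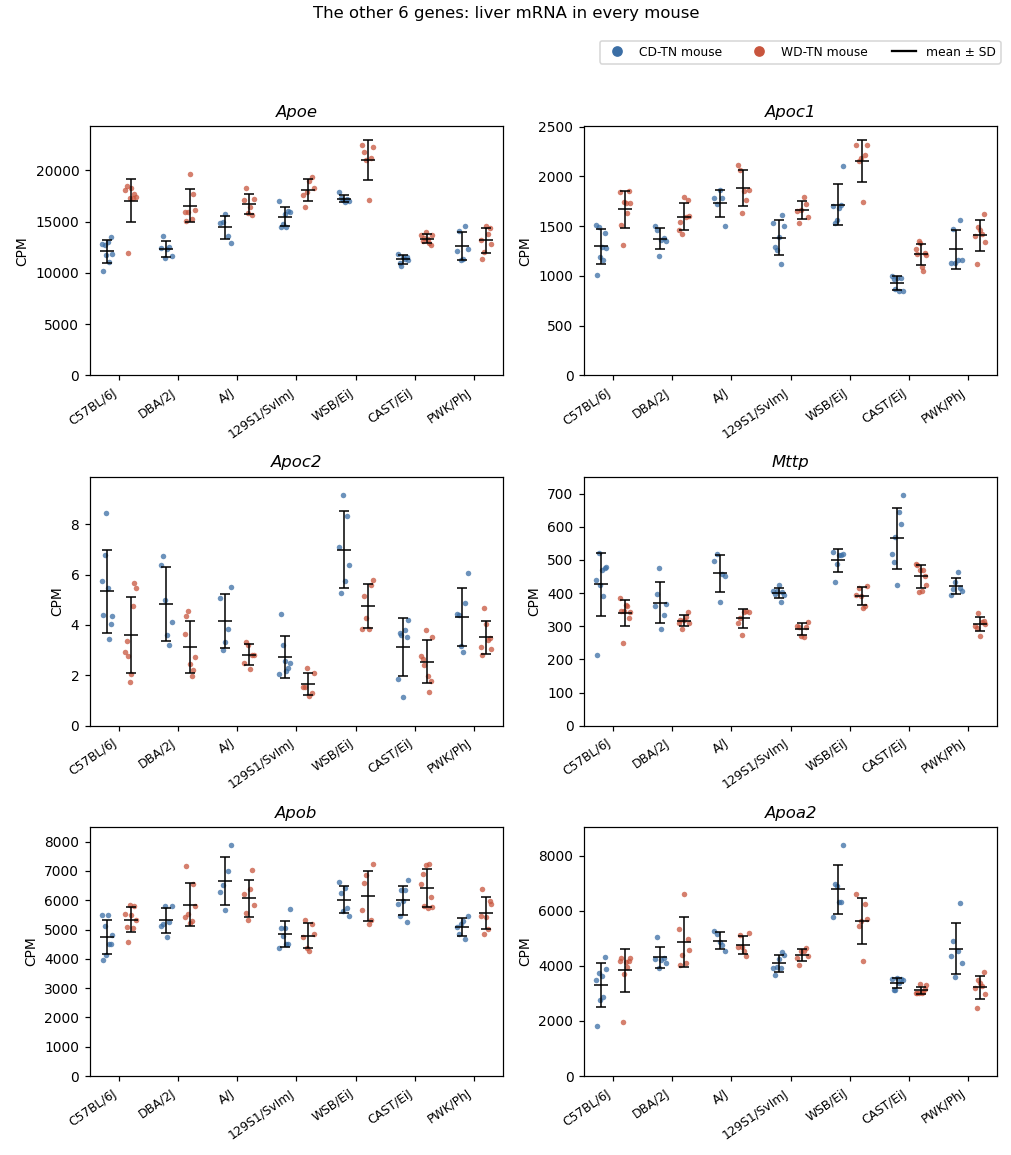
CPM of Apoe, Apoc1, Apoc2, Mttp, Apob and Apoa2 in every mouse, by strain and diet, with mean ± SD; axes start at 0. Apoe is higher and Mttp lower in WD-TN mice of most strains, the Apob groups overlap in every strain, and Apoc2 stays below 10 CPM.

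Whether the diet effect itself differed between strains was tested with an F test over the 7 strains, which 37.5% of all tested genes passed. It was passed by 5 of the 10 genes: Apoa4 (adjusted p = 0.0016), Apoa2 (0.0021), Apoe (0.0028), Apoc3 (0.0039) and Apoa5 (0.0089). It was not passed by Apoa1 (0.14), Apob (0.23), Apoc1 (0.27), Mttp (0.46) or Apoc2 (0.75). Each strain was then set against the mean of the other 6. In PWK/PhJ, where 16.3% of all genes differed, Apoa2 (difference of log2 fold changes -0.52, adjusted p = 0.0028) and Apoc3 (-0.36, adjusted p = 0.0049) fell more than elsewhere and the diet effect on Apoe was lower (-0.25, adjusted p = 0.013). The Apoe difference was lost without CD-TN mouse 5 (-0.20) or WD-TN mouse 2 (-0.21). In CAST/EiJ, where 14.5% of genes differed, Apoa4 stood 1.77 below the other strains (interval -2.49 to -1.05, adjusted p = 0.00029), and the decrease of Apoa1 was smaller (0.27, adjusted p = 0.046). That Apoa1 difference was lost in 37 of 93 fits that left out 1 mouse, with cohort in the fit (0.25, adjusted p = 0.054), with RIN, an index of RNA integrity, in the fit (0.25, adjusted p = 0.069) and with every gene of any count (adjusted p = 0.13). In 129S1/SvImJ Apoa5 fell more (-0.57, adjusted p = 0.0081; 6.28% of genes), and in C57BL/6J Apoe rose more (0.25, adjusted p = 0.018; 4.69% of genes). No gene of the 10 differed in DBA/2J (7.77% of genes), A/J (0.466%) or WSB/EiJ (0.947%).

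The strains differed from each other in all 10 genes on CD-TN and in all 10 on WD-TN, tests that 93.7% and 93.9% of all genes passed. For Apoa1, WSB/EiJ was highest on CD-TN (17599 ± 1192 CPM, SD, n = 6), above A/J (12745 ± 1737 CPM, n = 5; adjusted p = 0.00019), and no further neighbours in the order DBA/2J, CAST/EiJ, PWK/PhJ, 129S1/SvImJ and C57BL/6J differed. On WD-TN WSB/EiJ was again first (11599 ± 1092 CPM; adjusted p = 0.0028 against CAST/EiJ), then came CAST/EiJ, A/J, DBA/2J and PWK/PhJ with no neighbour called, a step down to C57BL/6J (adjusted p = 0.023), and 129S1/SvImJ last (6507 ± 362 CPM). WSB/EiJ was also first on both diets for Apoa2, Apoc2, Apoc3 and Apoe. For Apoe on CD-TN the order was WSB/EiJ (17249.5 ± 339 CPM), 129S1/SvImJ, A/J, PWK/PhJ, DBA/2J, C57BL/6J and CAST/EiJ (11326 ± 415 CPM), with 1 called step, between A/J and PWK/PhJ (adjusted p = 0.02). For Apoe on WD-TN, steps were called below WSB/EiJ (21006 ± 1973 CPM; adjusted p = 0.012) and between DBA/2J and CAST/EiJ (adjusted p = 2e-05), and C57BL/6J had moved from the sixth to the third place. WSB/EiJ was the only strain in cohorts 6 and 7, so strain and cohort cannot be told apart for it.

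Apoa4 on CD-TN ran from PWK/PhJ (461 ± 189 CPM) through 129S1/SvImJ, CAST/EiJ, C57BL/6J, DBA/2J and WSB/EiJ to A/J (68.1 ± 20.4 CPM), with called steps below 129S1/SvImJ (adjusted p = 0.033) and above A/J (adjusted p = 0.017). On WD-TN CAST/EiJ went to the last place (157 ± 22.4 CPM), and the 1 called step was between C57BL/6J and DBA/2J (adjusted p = 0.046). The highest and lowest of the 14 group means differed 14.1-fold for Apoa4, 4.23-fold for Apoc2, 2.92-fold for Apoa5 and 1.40-fold for Apob. The range of Apoc2 probably rests on its 167 exon bases not shared with Gm44805. Apoa5 was highest in A/J and lowest in 129S1/SvImJ on both diets, and the diets differed in how far the strains were apart: 4 of 21 strain pairs were called on CD-TN and 15 of 21 on WD-TN, where over all tested genes and the 21 pairs 48% and 50.4% were called. No neighbours in the CD-TN order of Apoa5 were called, while on WD-TN steps were called between C57BL/6J and CAST/EiJ (adjusted p = 0.05, just under the threshold) and between PWK/PhJ and 129S1/SvImJ (adjusted p = 0.013).

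For Apoc3, WSB/EiJ led on CD-TN (1537 ± 137 CPM) and C57BL/6J was last (909 ± 118 CPM), and on WD-TN PWK/PhJ was last (822 ± 80.4 CPM). Steps were called on CD-TN below WSB/EiJ (adjusted p = 0.02) and above C57BL/6J (adjusted p = 0.029), and on WD-TN below WSB/EiJ (adjusted p = 0.0071), below CAST/EiJ (adjusted p = 0.00045) and above PWK/PhJ (adjusted p = 0.025). Apoc1 was lowest in CAST/EiJ on both diets, at 928 ± 68.8 and 1219 ± 105 CPM, below PWK/PhJ on CD-TN (adjusted p = 4.2e-06) and on WD-TN (adjusted p = 0.018). Mttp was highest in CAST/EiJ on both diets, at 565 ± 93.2 and 450.3 ± 33.7 CPM, and lowest in DBA/2J on CD-TN (371 ± 62.3 CPM) and in 129S1/SvImJ on WD-TN (291 ± 17.7 CPM), with no neighbours called. No neighbours were called for Apob on either diet, though its ends differed on CD-TN (A/J, 6670.0 ± 822 CPM, against C57BL/6J, 4759.7 ± 579 CPM; adjusted p = 1.2e-06) and on WD-TN (CAST/EiJ, 6414 ± 649.8 CPM, against 129S1/SvImJ, 4797 ± 422 CPM; adjusted p = 3.3e-06).

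Mice were collected in 7 cohorts, and each strain was spread over 2 or 3 of them with both diets in each. Of the 35 called diet effects, 33 had the same sign in every cohort of their strain. The exceptions were Apoa5 in CAST/EiJ and Apoc2 in C57BL/6J, with the values given above. For Apoa1 the cohorts gave -0.49 and -0.24 in C57BL/6J, -0.62 and -0.52 in 129S1/SvImJ, and -0.58 and -0.65 in WSB/EiJ, all on the log2 scale. For Apoe they gave 0.49 and 0.52 in C57BL/6J and 0.41 and 0.43 in DBA/2J.

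Some of the 10 genes varied together from mouse to mouse within the groups. After each mouse's group mean was taken away, the Pearson correlation of log2 CPM over the 93 mice lay between -0.15 and 0.82 for the 45 pairs of genes, with a median of 0.20, and 9 pairs were above 0.5. The pairs with the highest values were Apoa2 with Apoe (0.82), Apoc1 with Apoe (0.75) and Apoa2 with Apoc3 (0.73), and those of Apoa4 with Apoa1 and with Apoc1 were the lowest (-0.15 each). Apob and Apoc2 were close to 0 with most of the others, and Apob reached 0.45 with Mttp. Pairs on the same chromosome had a median of 0.20 and pairs on different chromosomes also 0.20, over 9 and 36 pairs. All pairs share the libraries, their scaling and the cell make-up of the livers, so these values are given as a description. Over the 14 group means, Apoa1 and Apoa4 had a correlation of -0.75 and Apoc1 and Apoe of 0.87.

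**Figure D5:**
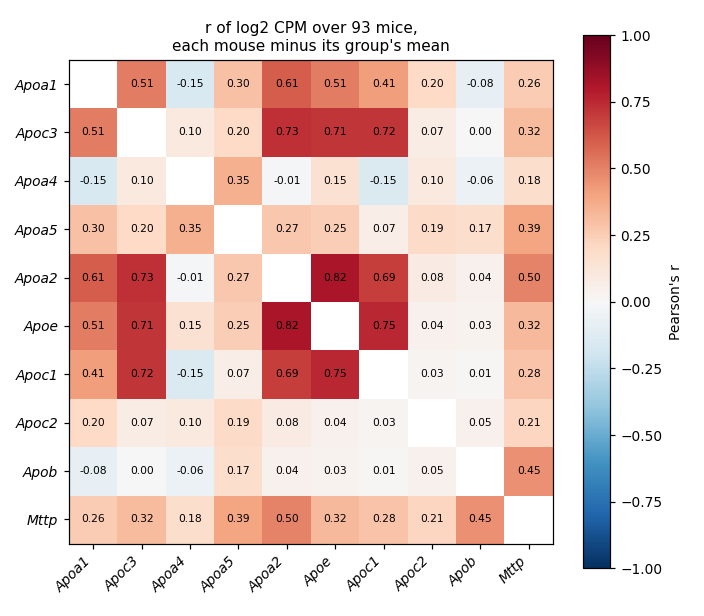
Pearson correlation of log2 CPM between each pair of the 10 genes over 93 mice, after the mean of each mouse's group was taken away. Apoa2, Apoe, Apoc1 and Apoc3 form a block of values between 0.69 and 0.82, while Apoa4, Apoc2 and Apob have values near 0 with most genes.

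Other genes followed the same order of groups. Among 11138 genes, the group means of Ahsg, which encodes the plasma protein fetuin-A, were most like those of Apoa1 (r = 0.96 over 14 groups), followed by Wbp4 (0.95). The most alike were Ebpl (0.95) and Gm17491 (0.93) for Apoa2, Laptm4b (0.91) and Cdc42ep1 (0.88) for Apoa4, Ppp1r3g (0.86) and Tm6sf2 (0.86) for Apoa5, Ugt3a1 (0.85) and Zfp386 (0.85) for Apob, and Mettl7a1 (0.96) and Plgrkt (0.93) for Apoc1. For Apoc2 they were Sorbs3 (0.89) and St3gal1 (0.89), for Apoc3 Sharpin (0.96) and Cyp2d10 (0.94), for Apoe Iscu (0.94) and Reep6 (0.94), and for Mttp Elk4 (0.94) and Brix1 (0.93). Within the groups, over 93 mice, the correlations of these 20 genes with their partners lay between -0.11 and 0.69, highest for Apoc3 with Cyp2d10 (0.69), Apoe with Iscu (0.61) and Apoe with Reep6 (0.58). The highest of 11138 values is large by selection, and nothing about shared control follows from it.

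Genes that work with the 10 in the lipoprotein pathway were listed in 5 groups of 83 genes, all of which were tested. The numbers that rose and fell on WD-TN were 16 and 20 for PWK/PhJ, 10 and 23 for CAST/EiJ, 8 and 10 for WSB/EiJ, 12 and 19 for 129S1/SvImJ, 5 and 11 for A/J, 10 and 10 for DBA/2J, and 20 and 18 for C57BL/6J. Of all tested genes, 15.1% and 14.5% rose and fell in PWK/PhJ, 9.77% and 9.73% in CAST/EiJ, and 4.97% and 3.97% in WSB/EiJ. The shares were 14.5% and 13.6% in 129S1/SvImJ, 4.39% and 4.64% in A/J, 10.2% and 7.77% in DBA/2J, and 14.3% and 11.9% in C57BL/6J. Among 24 partners of VLDL assembly, Tm6sf2, which acts in VLDL lipidation, fell in C57BL/6J (log2 fold change -0.71), 129S1/SvImJ (-0.63), WSB/EiJ (-0.46) and PWK/PhJ (-1.34, from 32.1 ± 6.02 to 12.6 ± 1.96 CPM). Smlr1, also needed for VLDL output, fell in 4 strains (log2 fold change -0.30 to -0.22), and Tmem41b, a lipid scramblase, in 5 (-0.32 to -0.19). Fitm1, a lipid droplet protein, rose in every strain but CAST/EiJ, where it was at 0.125 ± 0.131 CPM on CD-TN, and went from 7.43 ± 3.35 to 29.9 ± 10.0 CPM in C57BL/6J. Over the whole list 0 to 3 genes rose and 0 to 8 fell per strain, where 4.39% to 15.1% and 3.97% to 14.5% of all genes did.

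Among 12 other apolipoproteins, Apom, an HDL protein that carries sphingosine-1-phosphate, fell in all 7 strains (log2 fold change -1.56 in DBA/2J to -0.54 in WSB/EiJ). Apoh fell in 5 strains, and the acute-phase apolipoproteins Saa4 and Saa2 rose in 5 and 4 strains, Saa2 from 7.80 ± 3.48 to 91.9 ± 37.3 CPM in C57BL/6J. Across these 12 genes 1 to 6 rose and 1 to 3 fell per strain, where 4.39% to 15.1% and 3.97% to 14.5% of all genes did. Among 12 genes of remodelling in plasma, Abcg1, a cholesterol exporter, rose in 6 strains and Lipg, endothelial lipase, fell in 4. Lcat, which esterifies HDL cholesterol, fell in 4, and Angptl8, an inhibitor of lipoprotein lipase induced by feeding, fell in 5 strains but rose in CAST/EiJ (log2 fold change 1.23, adjusted p = 0.049). In the remodelling list 1 to 6 genes rose and 2 to 3 fell per strain, beside the same shares of all genes. Saa2 is near-identical to Saa1, so its share of their reads is uncertain.

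Among 12 genes of receptors and uptake, 0 to 3 rose and 2 to 4 fell per strain (4.39% to 15.1% and 3.97% to 14.5% of all genes). Lrpap1, a chaperone of lipoprotein receptors, fell in 4 strains (log2 fold change -0.34 in C57BL/6J to -0.17 in PWK/PhJ), and Sorl1, a sorting receptor, rose in WSB/EiJ (0.89), C57BL/6J (0.54) and CAST/EiJ (0.52). Among 23 transcription factors known to act on apolipoprotein genes, Srebf2 fell in all 7 strains (log2 fold change -0.82 to -0.36). Srebf1 rose in 5 strains and fell in 129S1/SvImJ (-0.69, from 552 ± 107 to 342 ± 64.5 CPM, adjusted p = 0.019), Nr1h2 fell in 4 and Foxa3 in 3. Across the list, 0 to 3 factors rose and 1 to 8 fell per strain, beside the same shares of all genes (4.39% to 15.1% and 3.97% to 14.5%).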

How the data were processed

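Liver RNA from 93 mice was made into libraries with the SMARTER mRNA kit and sequenced on a BGISEQ-500. The authors aligned reads to the C57BL/6J genome and counted them per gene with STAR (2.7.1a), and deposited raw counts per Ensembl gene, the unit used here. The strand setting of the counting is not given in the sources used here. The 4 summary lines of the table, which name no gene (ambiguous 3.69% to 5.67% and multimapping 8.03% to 12.2% of reads), were left out.

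From the counts, genes were kept with filterByExpr (minimum count 10), scaled by TMM (edgeR 4.0.16) and fitted with limma-voom (limma 3.58.1, R 4.3.3) as 14 strain and diet groups over all 93 mice. P-values were adjusted by Benjamini-Hochberg over 19110 genes, with a threshold of 0.05. Printed CPM are linear, and correlations used log2 CPM with a prior count of 2. Alternatives were edgeR's quasi-likelihood test, DESeq2 (1.42.0), upper-quartile scaling, every gene with any count, cohort or RIN (an index of RNA integrity, 7 to 9.7 here) as covariate, sample quality weights, a fit per strain, and each mouse left out. Leaving out the mice of other strains, and both C57BL/6J libraries that stood apart, was chosen after seeing the data. On simulated counts limma-voom recovered 87% of 200 genes changed 2-fold in PWK/PhJ. Most diet effects on the 10 genes were smaller than 2-fold, and recovery of smaller changes was not simulated. The labels do not say how mice of a group were housed together, so p-values measure the spread between mice.

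The 10 genes and the gene lists were chosen with earlier results of these data known. Named were all 10 genes, up to 4 genes of each pathway list called in the most strains (ties by mean absolute log2 fold change), and the 2 genes most like each member by correlation of group means. Gene positions are from GENCODE on GRCm38. Some genes that this rule names are not reported here.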

Additional observations from a re-analysis of the deposited data

Results flagged for a closer look

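In 14 of 140 groups (10 genes in 14 groups) 1 mouse lay farther from the rest than Dixon's 95% limit allows, where chance gives about 1 in 20, or 7. Both C57BL/6J libraries that stood apart account for 5 of them. CD-TN mouse 2 had 6108 CPM of Apoa1 (the other 7 mice 9066 to 10460.3) and 213 CPM of Mttp (392 to 520.0). WD-TN mouse 3 had 1978 CPM of Apoa2 (3711 to 4295), 11944 CPM of Apoe (17292 to 18465) and 249.5 CPM of Mttp (324 to 384). In the same strain on WD-TN, mouse 2 had 1392 CPM of Apoa4 (271 to 755) and mouse 7 had 894 CPM of Apoa5 (550.2 to 692).

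WSB/EiJ WD-TN mouse 4 was low in both Apoc1 (1741 CPM against 2154 to 2317) and Apoe (17146 CPM against 21050.2 to 22509.9), and WSB/EiJ CD-TN mouse 6 was high in Apoc1 (2106 CPM against 1526 to 1709). 129S1/SvImJ WD-TN mouse 2 had 5792 CPM of Apoa1 (6519 to 6785) and WD-TN mouse 4 had 1429 CPM of Apoc3 (1168 to 1237). DBA/2J CD-TN mouse 2 had 5033 CPM of Apoa2 (3916 to 4291), and A/J WD-TN mouse 2 had 345 CPM of Apoa4 (156 to 179.7).

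The diet effect of a strain differed from the mean of the other 6 in 7 cases, given as differences of log2 fold changes: Apoe in C57BL/6J (0.25), Apoa5 in 129S1/SvImJ (-0.57), Apoa1 (0.27) and Apoa4 (-1.77) in CAST/EiJ, and Apoa2 (-0.52), Apoc3 (-0.36) and Apoe (-0.25) in PWK/PhJ. When every gene with any count was tested, the adjusted p was 0.11 for Apoe in C57BL/6J, 0.13 for Apoa1 in CAST/EiJ and 0.16 for Apoe in PWK/PhJ.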

How the results depend on the processing

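Of the 70 diet effects, 59 to 68 kept their direction and their side of the threshold under each alternative, as did 868 of 930 values with 1 mouse left out. No called effect changed direction. Of uncalled ones, Apob in 129S1/SvImJ turned to 0.047 (upper-quartile scaling), 0.0085 (quality weights) and 0.0053 (fit per strain), and ran from -0.047 to 0.024 with 1 mouse left out. Apob in WSB/EiJ then ran from -0.036 to 0.068. Apoc3 in 129S1/SvImJ turned to 0.015 (upper-quartile), and in WSB/EiJ to -0.014 (any count), -0.00011 (RIN), -0.0053 (fit per strain) and -0.010 (both C57BL/6J libraries out), and to -0.051 to 0.10 with 1 mouse left out. The causes were not tested.

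Counts of the 10 genes moved by over 1.5 times as follows. Higher on WD-TN in A/J there were 2 under upper-quartile scaling, RIN, quality weights, fit per strain, DESeq2 and without both libraries, and 0 with any count. In CAST/EiJ 1 was higher with any count and 4 lower in DESeq2, in PWK/PhJ 2 were higher with weights, and in WSB/EiJ with any count and C57BL/6J in its own fit 1 was lower. Of the 83 pathway genes, in A/J 9 (weights), 10 (own fit), 8 (libraries out) and 8 (DESeq2) were higher and 7 (upper-quartile) and 18 (weights) lower. In 129S1/SvImJ 20 (weights) and 21 (own fit) were higher, in C57BL/6J 12 (own fit), in CAST/EiJ 4 (any count) and 5 (own fit), and 15 (own fit) were lower there and 6 (any count) in WSB/EiJ. With 1 mouse left out, the members higher ran 1 to 2 (129S1/SvImJ, A/J), 3 to 5 (C57BL/6J) and 0 to 2 (PWK/PhJ), those lower 1 to 4 (CAST/EiJ, DBA/2J), pathway genes higher 3 to 6 (A/J), 5 to 13 (CAST/EiJ) and 5 to 8 (WSB/EiJ), and lower 6 to 10 (A/J), 5 to 11 (DBA/2J) and 6 to 11 (WSB/EiJ).

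No paired analysis was possible because the labels give no replicate numbers. Low read numbers limit Apoc2 most, with 47 to 458 reads per mouse, and 646 of its 813 exon bases are shared with Gm44805. The design holds males, 1 age and 1 temperature, and RNA in liver was measured, not plasma protein.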
